A study of Mus musculus with 3 samples.

Results

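Pdgfra, Kit and Kdr lie in a row on mouse chromosome 5, and DNA copy number along that row was read from 3 arrays. All probes from 73600000 to 77000000 of chromosome 5 (build mm9, 3.4 Mb) were taken, whatever gene they are named for. They numbered 243 of 170293 probes, and 19 of them carry the name of a receptor gene, 6 for Pdgfra, 8 for Kit and 5 for Kdr. The receptors are 3 of 30 gene names in that row and of 21138 on the array. The rule uses positions and names and no measured value, though it was set with earlier results of these data known.

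The samples were genomic DNA of 3 neurosphere lines, which are tumour cells cultured as floating spheres, from mouse gliomas resistant to an inhibitor of the macrophage receptor CSF-1R. The lines had grown for 2 to 3 passages in neural stem cell medium. Each array held Cy5-labelled DNA of a line beside Cy3-labelled mouse liver DNA, without a dye swap, and all 3 arrays were on 1 slide. Lines 2 and 3 share an animal number and a liver label, while line 1 and its liver carry another number, so line 1 is the only one of its animal. The strain, age and genotype of the mice and the driver of the tumours are not given in the sources used here. No line from an untreated or sensitive tumour is among the samples, so liver was the control for every value.

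Pdgfra encodes the alpha receptor for platelet-derived growth factors and is carried by glial progenitor cells. Kit encodes the receptor for stem cell factor, and Kdr encodes the main receptor for vascular endothelial growth factor on blood vessel cells. All are receptor tyrosine kinases: ligand binding pairs the receptor chains, which then phosphorylate each other and start growth signals. In human glioblastoma the corresponding genes can be amplified together as a block, with PDGFRA the usual target.

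Each probe of the row is a single-stranded piece of 60 bases. The Pdgfra probes are shown because they carry the highest level of the receptor genes, the Kit probe numbered 4 because it lay far from its neighbours, the Kit probe numbered 1 for comparison, and the Kdr probes because they fall into 2 sets of unlike values. Capitals mark CpG pairs. Sequences are as the scanner files print them, and their strand was not looked up.
Pdgfra probe 1 (chr5:75548298-75548357): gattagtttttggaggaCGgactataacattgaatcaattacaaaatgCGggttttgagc
Pdgfra probe 2 (chr5:75554456-75554515): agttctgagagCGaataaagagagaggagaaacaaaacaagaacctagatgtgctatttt
Pdgfra probe 3 (chr5:75562988-75563047): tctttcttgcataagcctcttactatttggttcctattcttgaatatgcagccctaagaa
Pdgfra probe 4 (chr5:75576409-75576468): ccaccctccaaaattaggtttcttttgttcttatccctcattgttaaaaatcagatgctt
Pdgfra probe 5 (chr5:75582695-75582754): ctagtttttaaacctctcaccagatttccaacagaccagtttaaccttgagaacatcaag
Pdgfra probe 6 (chr5:75589897-75589956): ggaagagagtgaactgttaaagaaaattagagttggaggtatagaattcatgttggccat
Kit probe 1 (chr5:75981317-75981376): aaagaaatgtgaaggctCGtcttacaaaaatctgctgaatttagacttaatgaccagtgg
Kit probe 4 (chr5:76016896-76016955): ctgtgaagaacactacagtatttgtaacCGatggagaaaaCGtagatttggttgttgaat
Kdr probe 1 (chr5:76332225-76332284): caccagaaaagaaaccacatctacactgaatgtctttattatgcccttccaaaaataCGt
Kdr probe 2 (chr5:76345418-76345477): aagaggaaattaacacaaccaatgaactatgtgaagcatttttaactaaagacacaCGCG
Kdr probe 3 (chr5:76351639-76351698): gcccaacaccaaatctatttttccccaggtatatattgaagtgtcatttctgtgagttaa
Kdr probe 4 (chr5:76362057-76362116): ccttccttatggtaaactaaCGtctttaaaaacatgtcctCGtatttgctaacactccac
Kdr probe 5 (chr5:76370417-76370476): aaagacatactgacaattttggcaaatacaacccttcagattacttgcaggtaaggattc
The 19 receptor probes held at most 38.33% G and C, with a median of 36.67%, which is also the median of the 161449 autosomal probes.

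Values below are log2 ratios of line DNA over liver DNA, centred on the autosomal median of each array, so that 0 is the usual level and a positive value means more of that DNA in the line. With 3 copies in every cell in place of 2 it would be 0.585. A ratio from bulk DNA cannot tell a gain in some cells from a smaller one in all of them, and a difference between livers enters it with the opposite sign. Array 1 was the noisiest. The spread of a single probe, estimated from differences between neighbouring probes, was 0.232, 0.238 and 0.384 in lines 2, 3 and 1. Between 96.3% and 99.1% of spots were well above background for liver DNA and between 99.0% and 99.4% for line DNA. No spot reached saturation, and with so few arrays the spread over lines is known only roughly.

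Pdgfra lay above the liver level in lines 2 and 3, by most in line 3. In line 1 its mean was also positive, but it was -0.0080 in the authors' value table, which holds 4 of its 6 probes for that array. Its 6 probes lay on average at 0.27 ± 0.13 in line 2, 0.46 ± 0.23 in line 3 and 0.11 ± 0.33 in line 1 (SD over probes). All 6 were above 0 in line 2 and in line 3, against 3 of 6 in line 1. Probe 6, at the end nearest to Kit, had the highest mean over the lines, with 0.42 in line 2, 0.69 in line 3 and 0.50 in line 1. Probe 1 at the other end read 0.33 in line 2, 0.71 in line 3 and 0.41 in line 1. Both end probes were therefore high in every line, line 1 included. Probe 2 gave 0.30, 0.46 and -0.055 in lines 2, 3 and 1. Probe 5 gave 0.29, 0.46 and -0.22 in the same order. For these middle probes lines 2 and 3 were above the liver level and line 1 was below it. Probe 3 was the lowest in line 2 (0.031) and in line 3 (0.12) and read -0.25 in line 1, and probe 4 was nearly level over the lines, with 0.23, 0.31 and 0.27. Both end probes passed the value of 3 copies in line 3, where the mean over the gene did not. In line 1 the probes above 0 were the dimmer ones. Probes 1, 4 and 6 had liver signals of 665, 685 and 636 units there, against 1749, 2063 and 1304 for probes 2, 3 and 5. After a loess correction for brightness, probes 1 and 6 read 0.30 and 0.38 in line 1, and probe 2 turned to 0.073. Whether position in the gene or brightness goes with these values was not tested.

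Over the lines, Pdgfra averaged 0.28 ± 0.17 (SD, n = 3). The limma SE was 0.063, for which the spread of the gene is drawn toward that of all genes. The limma adjusted p against 0 was 0.0176, fitted over all 9462 genes with at least 3 probes. In that fit 24.1% of genes passed the threshold of 0.05, 14.2% above 0 and 9.95% below, so a pass by itself is common on these arrays. The call was lost without line 3 (0.19, limma adjusted p = 0.0730). So it was when lines 2 and 3 counted as a single animal (0.24, limma adjusted p = 0.0779). A wider view gave lower values: the 58 probes of the gene and 500 kb on each side averaged 0.20, 0.23 and 0.060 in lines 2, 3 and 1. Such windows reached 0.2 around only 0.275% of genes in line 2, 0.211% in line 3 and 0.0317% in line 1, whereas the means over the genes' own probes did so for 7.7%, 7.67% and 15.2% of genes.

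The difference between lines at Pdgfra was mostly in the Cy5 signal, the channel of line DNA. Line 3 exceeded line 1 by 0.35 in the ratio, at 6 of 6 probes. Taken alone, the Cy5 signal of line DNA was higher by 0.33 and the Cy3 signal of liver DNA by -0.0070 (centred log2 signal). Line 2 exceeded line 1 by 0.15, at 3 of 6 probes, with a difference of 0.21 for line DNA and 0.055 for liver DNA. Line 3 exceeded line 2 by 0.19, at 6 of 6 probes, of which 0.12 lay in line DNA and -0.062 in liver DNA, so the liver arm, which carries 1 label in both, held part of it. These differences are between single arrays and have no replicate.

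**Figure D1:**
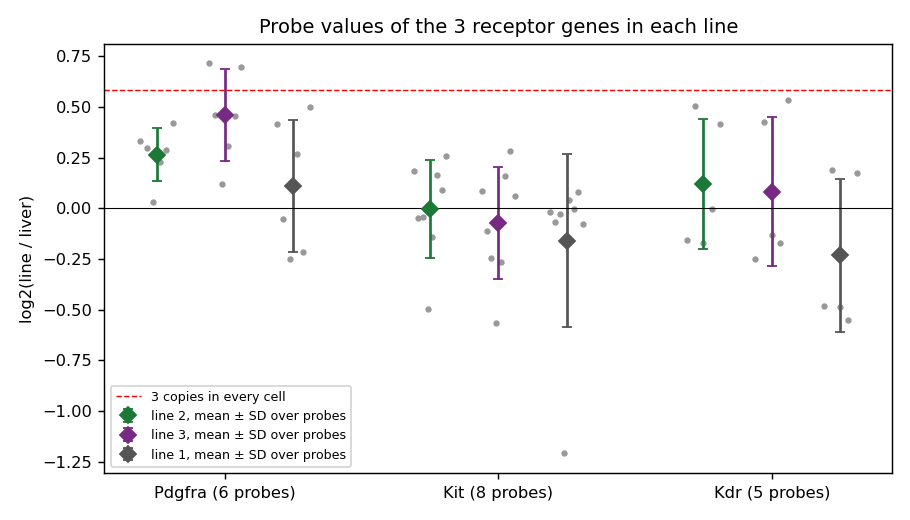
Log2 ratio of line DNA over liver DNA at each probe of Pdgfra, Kit and Kdr (points), with the mean and SD over probes of a gene (diamonds and bars), in lines 2, 3 and 1. The dashed line is the value of 3 copies in every cell; all 6 Pdgfra probes of lines 2 and 3 sit above 0, and a Kit probe of line 1 lies at -1.21.

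Kit, next along the chromosome, lay near or below the liver level. Its 8 probes, from 75981317 to 76051999, lay on average at -0.0045 ± 0.24 in line 2, -0.074 ± 0.28 in line 3 and -0.16 ± 0.43 in line 1 (SD over probes). Over the lines the mean was -0.080 ± 0.078 (SD, n = 3), which did not pass (limma adjusted p = 0.219). It was -0.039 without line 1 and -0.0089 with the median of its probes. Probe 1 of the gene, the nearest to Pdgfra, read 0.18 in line 2, 0.088 in line 3 and -0.020 in line 1. Of the other 7 probes, probe 7 was the only one above 0 in all lines (0.092, 0.28 and 0.083 in lines 2, 3 and 1), and in line 1 its signal was not well above background. The receptor's probes thus lay on both sides of the liver level in lines 2 and 3, with 4 of 8 above 0 in each, and 2 of 8 in line 1.

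Probe 4 of Kit set the sign of the gene mean. It is printed as 5 spots on each array, and it read -0.50 in line 2, -0.57 in line 3 and -1.21 in line 1. Its spots differed little, with SDs of 0.054, 0.028 and 0.095. Only 1.43%, 0.999% and 0.0867% of autosomal probes were at or below it in lines 2, 3 and 1. The processed signal of line DNA was similar on the arrays, with 1886, 1812 and 1799 units in lines 2, 3 and 1, whereas the liver signal was 2667, 2683 and 4146 units. The 3 other lowest readings of the gene in line 3 were its probes 5, 3 and 2, with -0.26, -0.24 and -0.11. Without probe 4 the remaining 7 lay on average at 0.066 in line 2, -0.0042 in line 3 and -0.010 in line 1, a mean of 0.017 ± 0.042 (SD, n = 3; limma adjusted p = 0.774). With or without it, Kit stayed below Pdgfra in each line.

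Kit differed between the arrays in both dyes. Its line DNA signal was higher by 0.38 on array 2 and by 0.34 on array 3 than on array 1, at 8 of 8 probes each. Its liver signal was higher too, by 0.22 and by 0.27, at 7 of 8 probes each. This leaves ratio differences of 0.16 (6 of 8 probes) and 0.086 (5 of 8). Probe 7 weighed heavily in these means in both dyes. On array 1, where its signal was not well above background, it read 72 units for liver DNA and 76 for line DNA. On arrays 2 and 3 its liver DNA read 198 and 173 units and its line DNA 210 on each. For the gene, the ratio in line 3 minus that in line 2 was -0.070, with 1 of 8 probes higher in line 3.

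Kdr split into 2 sets of probes, described after their values were seen, and the split shrank when the ratio was corrected for brightness. In the ratios used here, probes 2 and 5 were above 0 in every line, the one at 0.51, 0.42 and 0.19 in lines 2, 3 and 1 and the other at 0.42, 0.53 and 0.17. Probes 1, 3 and 4 were below 0 in every line, with -0.16, -0.25 and -0.48 for probe 1. Probe 3 read -0.17, -0.13 and -0.49, and probe 4 read -0.0044, -0.17 and -0.55. Low and high probes are interspersed along the gene, from 76332225 to 76370476, so no single border inside Kdr separates them. The 3 low probes were the brighter ones, with liver signals from 2510 to 3795 units over the arrays, against 475 to 664 units for the other 2. Over all autosomal probes the ratio fell with brightness in every array (r = -0.49, -0.47 and -0.50 across probes in lines 2, 3 and 1; probes of 1 array are not independent replicates). The mean of probes 2 and 5 exceeded that of the others by 0.57, 0.66 and 0.69 in lines 2, 3 and 1. After loess, which removes the trend of the ratio with brightness, the difference was 0.29, 0.38 and 0.20. The low probes of line 2 were then at 0.048, 0.012 and 0.15, so they were no longer below 0. With normexp background correction the difference was 0.14, 0.48 and -0.14, with the sign turned in line 1.

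As a gene, Kdr lay on average at 0.12 ± 0.32 in line 2, 0.082 ± 0.37 in line 3 and -0.23 ± 0.38 in line 1 (SD over probes). The mean over lines was -0.011 ± 0.19 (SD, n = 3; limma adjusted p = 0.916), and its sign turned with the correction used: it was 0.10 with normexp background correction, 0.078 with loess and 0.021 in the authors' value table. What differed was the offset between lines. Line 2 exceeded line 1 at 5 of 5 probes, by 0.35, and line 3 did so at 5 of 5, by 0.31. In line DNA alone those differences were 0.21 and 0.29, and in liver DNA -0.14 and -0.010. Higher means in lines 2 and 3 than in line 1 were found for 35.9% of all genes tested, and for each of Pdgfra, Kit and Kdr.

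Set against each other within a line, Pdgfra exceeded Kit by 0.27 in line 2, 0.53 in line 3 and 0.27 in line 1. It exceeded Kdr by 0.15, 0.38 and 0.34 in lines 2, 3 and 1. Both differences had 1 sign in 3 of 3 lines, with means of 0.36 ± 0.15 and 0.29 ± 0.12 (SD, n = 3). The exact sign flip test gave p = 0.25 for each (2-sided, 0.375 after Benjamini-Hochberg adjustment over 3 pairs), the smallest value 3 lines allow. Kdr minus Kit was 0.12, 0.16 and -0.072 (exact sign flip p = 0.50, 0.50 adjusted), so their order changed between lines.

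Along the whole 3.4 Mb, lines 2 and 3 were raised slightly and line 1 was not. Line 2 had a mean of 0.13 over the 243 probes (95% interval 0.090 to 0.17) and line 3 of 0.15 (0.098 to 0.20), whereas line 1 had 0.020 (-0.024 to 0.064). Intervals come from blocks of 10 neighbouring probes and cover probe error within an array only. Probes above 0 made up 68.7% in line 2, 68.7% in line 3 and 49.0% in line 1, while the centring puts as many autosomal probes above 0 as below. Over the lines the mean was 0.10 ± 0.071 (SD, n = 3; exact sign flip p = 0.25, 2-sided, the smallest value possible). The rest of chromosome 5, 9929 probes, averaged 0.017, 0.0042 and -0.0066 in lines 2, 3 and 1.

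In lines 2 and 3 the higher means lay on the Pdgfra side, up to Kit, and in line 1 the level fell at Kit too. The differences between sections were not tested. The 159 probes before Pdgfra averaged 0.16 (0.12 to 0.20) in line 2, 0.19 (0.14 to 0.23) in line 3 and 0.051 (-0.0042 to 0.11) in line 1. From the first Pdgfra probe to the last Kdr probe, 41 probes averaged 0.13 (-0.068 to 0.32), 0.14 (-0.20 to 0.49) and -0.065 (-0.34 to 0.21). After Kdr, 43 probes averaged 0.014, 0.030 and -0.013, near the liver level in all lines. Between Pdgfra and Kit, where 13 probes lie, 13 of 13 were above 0 in line 2 and in line 3 and 7 of 13 in line 1, with means of 0.23, 0.28 and 0.056. Between Kit and Kdr 9 probes averaged 0.016, -0.033 and -0.18. In bins of 200 kb lines 2 and 3 were highest from 75.6 to 75.8 Mb, just past Pdgfra, with 0.25 and 0.35 over 6 probes. From 76.0 to 76.2 Mb, which holds 6 of the 8 Kit probes, the level was -0.048, -0.11 and -0.29 in lines 2, 3 and 1, the lowest bin of lines 3 and 1. Without Kit probe 4 the other 10 probes of that bin averaged -0.0033, -0.063 and -0.19, so in line 2 the bin lay at the liver level.

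**Figure D2:**
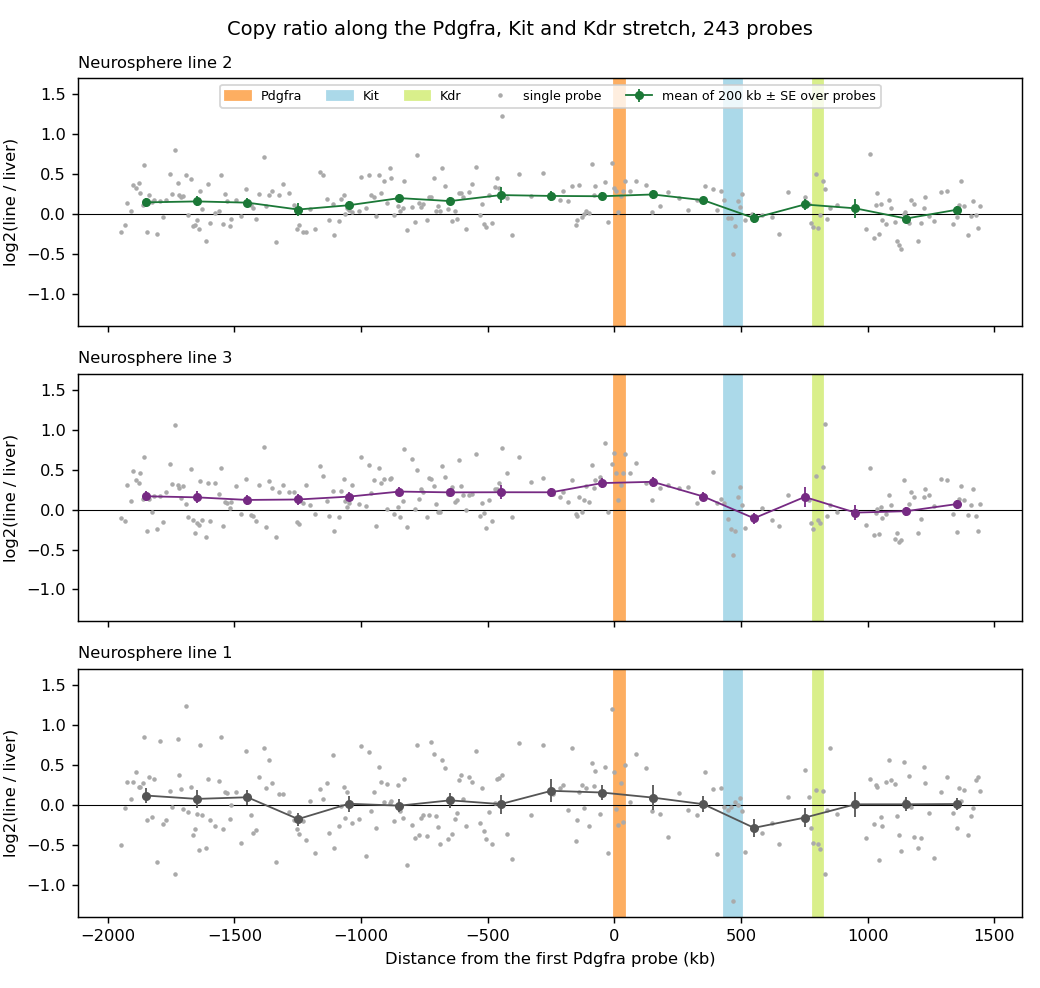
Log2 ratio of line DNA over liver DNA (vertical axis) against the distance from the first Pdgfra probe in kb, for lines 2, 3 and 1 from top to bottom. Grey points are the 243 probes, coloured points are means of 200 kb with the SE over probes, and shaded bands are Pdgfra, Kit and Kdr. In lines 2 and 3 the means stay above 0 up to Kit and are below 0 in the bin with most of Kit (-0.048 and -0.11, or -0.0033 and -0.063 without Kit probe 4). In line 1 that bin is below 0 as well (-0.29).

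The flanks were read beside the row, whose borders were set with earlier results of these data known. The 2 Mb below, 184 probes, averaged -0.0017 (-0.056 to 0.052) in line 2, -0.011 (-0.058 to 0.036) in line 3 and -0.014 (-0.076 to 0.048) in line 1. The 2 Mb above, 112 probes, averaged 0.10 (0.020 to 0.19), 0.11 (0.024 to 0.20) and 0.062 (-0.033 to 0.16). The level was therefore at 0 before the row began in all lines and above 0 after it in lines 2 and 3. Local gene number had a median of 8 gene names within 500 kb for the probes of the row and 8 for autosomal probes. It varied inside the row, from a mean of 3.8 in the bin at 76.0 to 76.2 Mb to 18 at 76.8 to 77.0 Mb. Whether it goes with the level along the row was not tested.

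The change from line 1 was again mostly in the Cy5 signal, the channel of line DNA. Without a dye swap, line DNA cannot be told apart from the Cy5 labelling of an array. Over the 243 probes the ratio was higher by 0.11 (0.071 to 0.15) in line 2 and by 0.13 (0.084 to 0.18) in line 3 than in line 1. It was higher at 67.5% and 65.4% of the probes, beside 51.7% and 51.5% of autosomal probes. For line DNA alone the differences were 0.13 (0.089 to 0.16) and 0.15 (0.11 to 0.20), and for liver DNA alone 0.015 (-0.013 to 0.043) and 0.031 (-0.0030 to 0.066). Line DNA was brighter at 79.8% of the probes on array 2 and at 79.4% on array 3 than on array 1, beside 49.8% and 49.6% of autosomal probes. From Pdgfra to Kdr the line DNA difference was 0.24 and 0.28, at 40 and 38 of 41 probes, and the liver difference 0.047 and 0.084. The ratio difference there was 0.19 (0.098 to 0.29) and 0.21 (0.14 to 0.28), beside 0.11 and 0.13 before Pdgfra. It was 0.20 and 0.15 between Kit and Kdr. After Kdr it was 0.027 and 0.043, with intervals that include 0. The excess over line 1 thus did not end at Kit. In the 2 Mb above the row the line DNA differences were 0.082 (0.062 to 0.10) and 0.088 (0.041 to 0.14). The liver differences there were 0.042 and 0.051, with intervals that include 0. The ratio differences there, 0.041 (-0.030 to 0.11) and 0.049 (-0.012 to 0.11), had intervals that include 0 as well. The differences of lines 2 and 3 from line 1 share array 1 and are not independent of each other. Line 3 minus line 2 was 0.019 (-0.0084 to 0.047) over the row, an interval that includes 0.

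**Figure D3:**
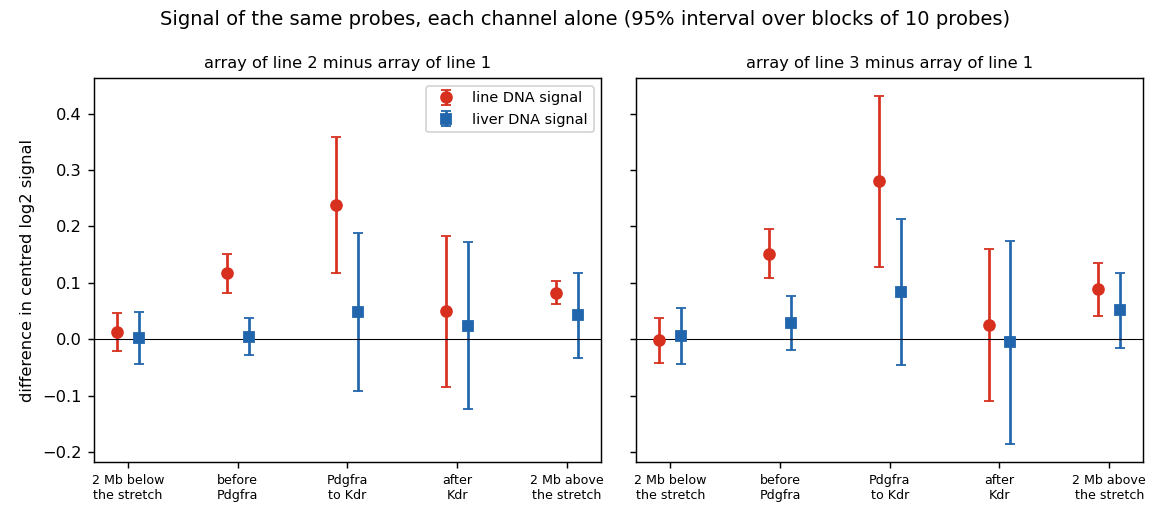
Difference in centred log2 signal (vertical axis) of line DNA (red circles) and of liver DNA (blue squares), array 2 minus array 1 on the left and array 3 minus array 1 on the right, for 5 neighbouring parts of chromosome 5. Bars are 95% intervals over blocks of 10 probes; before Pdgfra, from Pdgfra to Kdr and in the 2 Mb above the row, the line DNA intervals lie above 0 and the liver DNA intervals include 0.

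Autosomal tiles of the same length put these sizes in context. Of 699 tiles, 8 had a mean at or above that of the row in line 2 (1.14%), 3 in line 3 (0.429%) and 243 in line 1 (34.8%). For the mean of lines 2 and 3 minus line 1, which was 0.12, 1 tile was as high (0.143%), on chromosome 11 from 34000001 to 37400000. No tile reached the row in the line DNA differences: the highest was 0.122 against 0.125 for line 2 minus line 1 and 0.147 against 0.151 for line 3 minus line 1. In the liver DNA differences 14.6% and 11.2% of tiles were at or above it. The row was thus near the top of the autosomes in lines 2 and 3 and in the bulk in line 1. Its borders were set with earlier results of these data known, whereas the tiles lay on a fixed grid. That can favour its rank, which is a description and not a test.

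**Figure D4:**
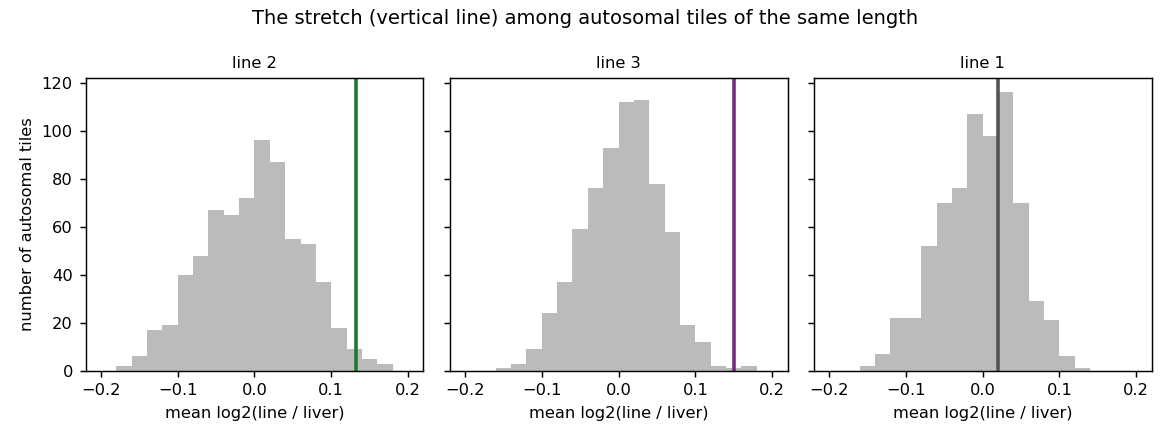
Number of autosomal tiles of 3.4 Mb (grey bars) by their mean log2 ratio, for lines 2, 3 and 1, with the row of Pdgfra, Kit and Kdr as a vertical line. The row lies in the upper tail in line 2 (0.13) and line 3 (0.15) and near the centre in line 1 (0.020).

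With the segmentation used (a penalty of 10 times log(n), at least 10 probes), Pdgfra lay in no segment with an absolute mean of 0.2 or more in any line, and no segment began or ended in the row. A penalty of 5 divided chromosome 5 near its start in lines 2 and 3: line 2 had a segment from 73625330 to 78041001 (328 probes, mean 0.14) and line 3 one from 73576946 to 83813686 (557 probes, 0.12). Normexp and loess gave segments in both lines at the first penalty, and the authors' value table gave one in line 3 but none in line 2. At that penalty no border near the row came with correction for local gene number or probe base composition. The same held with centring on chromosome 5 and without dim probes. The 7 segments found, all from the arrays of lines 2 and 3, began within 84394 base pairs of each other, from 73540936 to 73625330. Their means were 0.12 to 0.16. Their ends lay farther apart, past Kdr in each case. With a penalty of 2 and at least 5 probes, line 3 had a segment of 0.21 from 73625330 to 75936677 (174 probes), which holds Pdgfra and ends before Kit. Line 2 at that setting had a wider one of 0.11 from 72387251 to 78041001 (450 probes), which begins below the row and ends past Kdr. Over the probes of the line 3 segment the mean was 0.18 (0.14 to 0.22) in line 2 and 0.060 (0.00079 to 0.12) in line 1. Segments that reach 0.2 were common in line 3 at that setting. Over all chromosomes 106 of its 486 segments had an absolute mean of 0.2 or more, against 0 of 32 at the first penalty. Line 1 had no border near the row under any of these settings.

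The genes of the row varied around its level. Of its 30 gene names, 19 had at least 3 probes, and 6 of these passed limma, all above 0 (beside 14.2% of all genes above 0 and 9.95% below). Their median was 0.071, with 0.089, 0.095 and 0.0042 in lines 2, 3 and 1, beside 0.011 for all genes. In 11 of 19 the mean was higher in lines 2 and 3 than in line 1, beside 35.9% of all genes, and 8 of 19 were above 0 in all lines, beside 32.7%. Without the 3 receptors, 5 of 16 passed, 8 of 16 were higher in lines 2 and 3 than in line 1, and the median was 0.075. Genes at the far end from the receptors were Fryl, with -0.035, -0.056 and -0.048 in lines 2, 3 and 1 (4 of its 22 probes lie in the row), and Ociad1, which passed (0.22, limma adjusted p = 0.0131). The 3 probes of Ociad1 had SDs of 0.42, 0.46 and 0.52 in lines 2, 3 and 1. Cwh43 passed at 0.30 (limma adjusted p = 0.0137), with 0.38 in line 2, 0.42 in line 3 and 0.10 in line 1, the order seen for Pdgfra. BC096449, with 40 of its 82 probes in the row, Dcun1d4, Lrrc66 and Usp46 did not pass and had means from -0.017 to 0.033.

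Nearer to Pdgfra the values were mostly positive. Scfd2, which encodes a protein of the Sec1 family and has the most probes of the row that lie wholly inside it (32), lay on average at 0.18 in line 2, 0.21 in line 3 and -0.012 in line 1 (limma adjusted p = 0.108). Fip1l1, a factor of mRNA polyadenylation whose human counterpart is known from a fusion with PDGFRA, averaged 0.21, 0.24 and 0.19 and passed (0.21, limma adjusted p = 0.0100). Lnx1, a ubiquitin ligase, had 0.17, 0.13 and 0.0042, and Chic2 had 0.060, 0.095 and 0.080, and neither passed. AK139774, just before Pdgfra, had 0.31, 0.45 and 0.36 over 3 probes and the lowest adjusted p of the row (0.38, limma adjusted p = 0.00363). The SDs over its probes were 0.38, 0.44 and 0.91 in lines 2, 3 and 1, a spread that the test over lines does not count. Scfd2 and Lnx1 had their higher values in lines 2 and 3, whereas Fip1l1 and AK139774 had similar values in line 1. Gsx2, a homeobox gene of the forebrain, has 1 probe and was not tested. It read 0.35, 0.38 and 0.42.

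Past Kdr the genes lay around 0. Clock, a core component of the circadian oscillator, had -0.11, -0.075 and -0.034 over 9 probes in lines 2, 3 and 1 and did not pass. Nmu, which encodes the peptide neuromedin U, passed at 0.17 (0.089, 0.20 and 0.22, limma adjusted p = 0.0284), with the highest value in line 1. Gm7271 and Exoc1, a subunit of the exocyst, did not pass, and Exoc1 was higher in line 1 (0.20) than in line 2 (0.022) and line 3 (-0.0053). Without line 2 the count of passing genes fell to 3, and with lines 2 and 3 averaged as 1 animal only AK139774 passed. Of 16 genes often amplified with the receptors in human tumours, 15 had a probe and 10 were tested, of which Fip1l1 and Nmu passed above 0 and none below (beside 14.2% and 9.95% of all genes), with a median of 0.075.

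**Figure D5:**
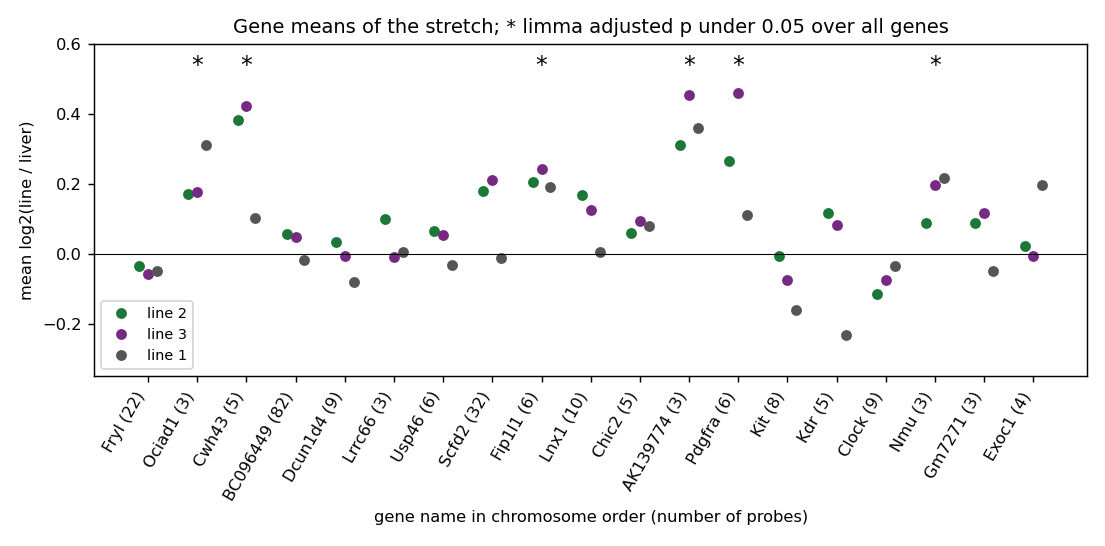
Mean log2 ratio over the probes of each of the 19 genes tested, in chromosome order with the number of probes, for lines 2, 3 and 1. Stars mark the 6 genes past the limma threshold over all 9462 genes. Pdgfra and Cwh43 are high in lines 2 and 3. Kdr (-0.23) and Kit (-0.16) are the lowest in line 1, where other genes along the row are below 0 as well.

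Related receptors and ligands elsewhere in the genome showed no common shift. Of 5 receptors of the same families (Pdgfrb, Csf1r, Flt3, Flt1 and Flt4), 4 were tested, and Flt3 alone passed (beside 24.1% of all genes), with 0.12, 0.13 and 0.13 in lines 2, 3 and 1 (limma adjusted p = 0.0476). Of 13 ligands 11 had a probe and 8 were tested, 1 of which passed above 0 and 1 below (beside 14.2% and 9.95% of all genes), a share near that of all genes. Il34, a ligand of CSF-1R, had 0.17, 0.17 and 0.11 (0.15, limma adjusted p = 0.0310). Pdgfb, a ligand of both PDGF receptors, had -0.095, -0.34 and -0.74 (limma adjusted p = 0.0267) over 3 probes. Kitl, the ligand of Kit, had 0.036, 0.025 and 0.020 and Vegfa, the main ligand of Kdr, had 0.30, 0.25 and -0.29, and neither passed. The median over the ligands was -0.044 and over the receptors -0.0084.

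Among 2615 genes with at least 10 probes outside chromosome 5, the 3 whose line means lay nearest to those of Pdgfra were Itgb5, Ccnd3 and Fam178b. Likeness was the Euclidean distance over the 3 lines, a small number of points. Itgb5, an integrin chain on chromosome 16, had 0.28, 0.36 and 0.17 in lines 2, 3 and 1 (distance 0.116). Ccnd3, a cyclin of the early cell cycle on chromosome 17, had 0.35, 0.44 and 0.19 (distance 0.122), and Fam178b on chromosome 1 had 0.27, 0.34 and 0.14 (distance 0.126). The order line 3 over line 2 over line 1 was shown by 17.1% of the 5920 genes with at least 5 probes. Single probes above 0 in all lines made up 44.4% of the row (108 of 243) and 31.6% of the receptor probes (6 of 19), beside 33.4% of autosomal probes.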

How the data were processed

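Genomic DNA of 3 neurosphere lines was hybridised against mouse liver DNA on 2-colour arrays. Spot intensity values were deposited as Agilent Feature Extraction 10.7.3.1 gave them, per the file headers: with the background subtracted, trends removed and dyes scaled linearly. A log10 ratio of red over green stands beside them, per the file headers. In the authors' value table, also log10, the column medians were 0.000435 (line 1), -0.00146 (line 2) and -0.00271 (line 3). Scanner ratios regressed on it with slopes of 0.998 to 1.01, which settles its scale and direction. Its centring and correction are not given in the sources used here.

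Control spots (6575 of 180880) and 160 to 179 spots with an outlier mark per array were left out, and spots of 1 probe were averaged. The log2 of processed Cy5 over Cy3 intensity was centred on the autosomal median. Gene names and mm9 coordinates are as the array files give them, and probes were not placed in exons or introns. For 9462 genes of 3 or more probes, limma 3.58.1 under R 4.3.3 tested the gene mean against 0 (eBayes, 2-sided), with Benjamini-Hochberg adjustment. Segments came from penalised least squares (PELT). On data simulated for the gene test with 9462 genes, 80 of 100 shifts of 0.5 and 39 of 100 shifts of 0.25 were recovered by limma. The simulated lines were independent, and genes without an added shift were centred on 0. In the data lines 2 and 3 share an animal number and 24.1% of genes passed, so these rates need not hold there. The remaining work ran in Python 3.11.15 with scipy 1.17.1, numba 0.67.0, matplotlib 3.10.9, pandas 2.3.3 and numpy 2.4.6.

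The p-values take no account of the spread over probes, and lines 2 and 3 come from 1 animal number. Those of limma rest on the spread between lines after eBayes draws it toward that of all genes. For Pdgfra this gave an SE of 0.063 beside an SD of 0.17 over the 3 lines. The genes named are Pdgfra, Kit and Kdr, the other genes of the row with at least 3 probes, the listed receptors, ligands and co-amplified neighbours by count with those past the threshold, and the 3 nearest patterns. Gsx2, Kitl and Vegfa are named outside that rule, after their values were seen. The members and lists were chosen with earlier results of these data known. Alternatives covered the value table, background correction, loess, centring, local gene number, probe base composition, dim probes, the summary and number of probes, lines left out, and the segmentation.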

Additional observations from a re-analysis of the deposited data

How the results depend on the processing

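Of 118 values under other settings, 96 kept their direction and their side of the threshold or moved by less than the spread, 10 moved, 4 lost the threshold and 8 changed sign. The mean of Pdgfra over the lines stayed above 0 in every fit, and missed the limma threshold in the authors' value table, which holds 4 of its 6 probes for all arrays (0.22, adjusted p = 0.0853), without line 3 (adjusted p = 0.0730), with lines 2 and 3 averaged as 1 animal (0.24, adjusted p = 0.0779) and among all genes with at least 1 probe (0.28, adjusted p = 0.0536). Leaving out 1 line gave 0.19 to 0.36. In line 1 alone Pdgfra was at -0.0080 in the value table. Kit turned positive in windows of 500 kb on each side (0.085, limma adjusted p = 0.00112), which take in all 6 Pdgfra probes and the 13 between the genes, and without its replicated probe (0.017), a choice made after seeing the data. Leaving out 1 line gave -0.12 to -0.039 for Kit. Kdr turned positive in the value table (0.021), with normexp (0.10), with loess (0.078) and without line 1 (0.10), and leaving out 1 line gave -0.075 to 0.10. The difference between its probe sets turned to -0.14 in line 1 with normexp. The mean of lines 2 and 3 minus line 1 was 0.107 after centring on chromosome 5. Of the genes of the row, 3 passed without line 2, and leaving out 1 line gave 3 to 8. With 2 animals 1 passed, and with all genes of at least 1 probe 10 passed, 9 of them above 0. Lines with a called segment over Pdgfra went from 0 to 1 with a penalty of 2 and at least 5 probes. The line concerned, line 3, had 106 called segments over all chromosomes at that setting. Apart from fewer probes, genes or lines, the cause was not tested. The probe base composition setting and those for single lines, probe sets and the bin at Kit were also chosen after seeing the data. A minimum of 10 probes gave no value for the receptor genes, which have fewer. No paired analysis was possible because the lines form a single group.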
